A study of Mus musculus with 12 samples.

Results

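The SLC25 genes encode the mitochondrial carrier family, the transporters that move metabolites, nucleotides and cofactors across the inner mitochondrial membrane. Members were taken by symbol from the deposited expression table, as every gene named Slc25a followed by digits only, which gave 47 of 24341 genes. No measured value entered the choice. Of the 47, 38 reached 1 FPKM (a fragment count divided by transcript length and by library size) in at least 3 of the 12 libraries and were tested, and 9 were not. Relatives under other symbols, such as the uncoupling proteins, are outside this set and are given separately.

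Carriers of this family share a fold of repeated membrane-spanning helices, and most exchange a solute of the matrix for a solute of the intermembrane space. Citrate made in mitochondria is used in fat-forming cells as a source of cytosolic acetyl-CoA: the citrate carrier Slc25a1 exports it, and ATP citrate lyase, encoded by Acly, splits it into acetyl-CoA and oxaloacetate. Other members supply the respiratory chain with phosphate and ADP, pass reducing equivalents through the malate-aspartate shuttle, or import acylcarnitines, amino acids, iron, glutathione and cofactors.

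The libraries were made from preadipocytes of C57Bl/6 adipose tissue, immortalised with SV40, in 4 groups of 3 libraries: preadipocytes and adipocytes, each from Aclyf/f and from Acly-/- cells. Aclyf/f cells carry conditional, loxP-flanked Acly alleles and are the controls, and Acly-/- cells lack functional Acly by label. Preadipocytes were taken on day 0 and adipocytes on day 4 after a rosiglitazone-containing adipogenic cocktail, all in DMEM with 10% serum. The sources used here do not state how Acly was deleted, which exons were removed, or whether the libraries of a group came from different cultures or clones, so the p-values measure the spread between these libraries, which may be technical. SV40-immortalised cells in culture limit the groups as a model of adipose tissue.

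Acly, the targeted gene, checked the labels: it was at 84.9 to 89.5 FPKM in the Aclyf/f preadipocytes and 722 to 814 FPKM in the Aclyf/f adipocytes, against 11.9 to 12.5 FPKM in Acly-/- preadipocytes and a mean of 12.4 ± 1.17 FPKM (SD, n = 3) in Acly-/- adipocytes. Estimated depth was 1 to 1.93 times that of the shallowest library, Aclyf/f preadipocyte library 1. Correlations of log2 values across genes were 0.986 to 0.993 within groups and 0.819 to 0.964 between them. Acly-/- preadipocyte library 3 stood apart, with 8.90% of its summed FPKM in the small nucleolar RNA Snord12. Adipocyte markers summed to 1079 to 1147 FPKM in preadipocytes and 11319 to 12188 in adipocytes of the Aclyf/f genotype, against 641 to 703 and 6847 to 8449 without Acly. Of the 10 listed, the leptin gene Lep was at the floor of the table (0.01 FPKM) in every library. Preadipocyte and fibroblast markers, 8 in number, summed to 1447 to 1699 and 194 to 292 FPKM in the Aclyf/f stages, and to 1760 to 2521 and 878 to 896 FPKM without Acly. Brown and beige adipocyte markers summed to at most 1.33 FPKM, with Cidea and Dio2 at the floor throughout, endothelial markers to at most 1.68 FPKM and muscle markers to at most 6.00 FPKM. Macrophage markers reached 30.5 to 36.3 FPKM in Acly-/- adipocytes against at most 7.61 elsewhere, with Cd68 at a mean of 32.6 FPKM there, while the leukocyte gene Ptprc was at the floor in every library.

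The sequences before the starts of 4 members are printed because these are the 3 tested members with the largest rise and the member with the largest fall during differentiation of Aclyf/f cells. Each is the 250 bases before the annotated start, from RefSeq on GRCm38.p6, in the direction of transcription. Slc25a1 lies at chr16:17925211-17928219 on mm10 and its upstream bases at chr16:17928220-17928469, minus strand. For Slc25a10 the gene is at chr11:120491837-120501161 and the upstream bases at chr11:120491587-120491836, plus strand. Slc25a34 spans chr4:141618825-141623834, with upstream bases at chr4:141623835-141624084, minus strand. Slc25a24 spans chr3:109123149-109168409, with upstream bases at chr3:109122899-109123148, plus strand. Capitals mark the only match among the motifs searched, the E-box in Slc25a1, which begins 239 bases before the start.
Slc25a1: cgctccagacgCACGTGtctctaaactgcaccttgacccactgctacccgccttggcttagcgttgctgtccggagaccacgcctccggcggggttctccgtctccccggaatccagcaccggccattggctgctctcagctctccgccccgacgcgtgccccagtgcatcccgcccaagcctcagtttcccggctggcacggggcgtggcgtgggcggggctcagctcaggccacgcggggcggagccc
Slc25a10: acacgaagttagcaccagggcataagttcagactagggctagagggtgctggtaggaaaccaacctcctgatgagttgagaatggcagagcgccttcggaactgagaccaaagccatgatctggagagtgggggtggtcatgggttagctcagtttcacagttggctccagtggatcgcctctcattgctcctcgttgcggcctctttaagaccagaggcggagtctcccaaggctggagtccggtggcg
Slc25a34: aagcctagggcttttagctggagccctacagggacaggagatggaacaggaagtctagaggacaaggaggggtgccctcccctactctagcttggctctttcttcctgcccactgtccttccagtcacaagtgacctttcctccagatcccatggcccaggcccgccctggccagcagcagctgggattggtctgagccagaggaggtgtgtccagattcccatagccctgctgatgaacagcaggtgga
Slc25a24: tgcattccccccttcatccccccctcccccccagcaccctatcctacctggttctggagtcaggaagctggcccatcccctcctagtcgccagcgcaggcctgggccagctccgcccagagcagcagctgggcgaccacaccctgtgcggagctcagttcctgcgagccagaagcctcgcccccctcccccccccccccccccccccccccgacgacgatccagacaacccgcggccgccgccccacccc
These stretches differ in base composition. GC content was 70.0% for Slc25a1, 56.0% for Slc25a10, 58.4% for Slc25a34 and 72.8% for Slc25a24. The ratio of observed to expected CpG was 0.833 for Slc25a1 and 0.0469 for Slc25a34, whose 250 bases hold 1 CpG.

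RefSeq windows of 300 bases (250 before and 50 after a start) were matched by symbol for 36 of the 47 members, in 46 windows, and were searched on both strands. The E-box, CACGTG, the site of basic helix-loop-helix factors such as USF and MYC, was in 8 of 46 member windows (17.4%) and in 7.15% of all 32851 windows. It occurred in Slc25a1, Slc25a13, Slc25a14, Slc25a15, Slc25a31, Slc25a33 and Slc25a36. Overlapping windows of Slc25a14 hold the same E-box, 54 and 184 bases before their starts, so that site is counted in both. A cyclic AMP response element, TGACGTCA, was in 2 member windows (4.35%, against 1.79% of all), those of Slc25a25 and Slc25a36. The sterol response element TCACNCCAC was in 1 member window, that of Slc25a18 (2.17% against 1.24%). No member window held the NRF1 site (0.971% of all), the estrogen-related receptor site TNAAGGTCA (1.28%), the PPAR and RXR direct repeat (0.0396%) or the CEBP-ATF element TGATGNAA (3.97%). Median GC content was 59.33% in member windows and 52.67% in all. These matches describe letters in the windows, and binding was not measured.

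Levels of the tested carriers ran from near the floor to 516 FPKM, a unit that is per length and so can be set side by side between genes. In Aclyf/f preadipocytes the ADP/ATP carrier Slc25a4, the phosphate carrier Slc25a3 and the ADP/ATP carrier Slc25a5 were the most abundant members. In Aclyf/f adipocytes Slc25a1 ranked first. The summed level of the 47 members was 1135 ± 37.7 FPKM in preadipocytes and 2292 ± 36.0 in adipocytes of Aclyf/f cells, and 1380 ± 82.7 and 1612 ± 54.1 in the matching stages of Acly-/- cells (SD, n = 3 throughout). No 2 groups overlapped in this sum. Slc25a1 alone made up 38.0% of the gain in the sum between preadipocytes and adipocytes of Aclyf/f cells, and the dicarboxylate carrier Slc25a10 a further 16.3%. The same genes made up 50.6% and 23.0% of the difference between Acly-/- and Aclyf/f adipocytes.

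**Figure D1:**
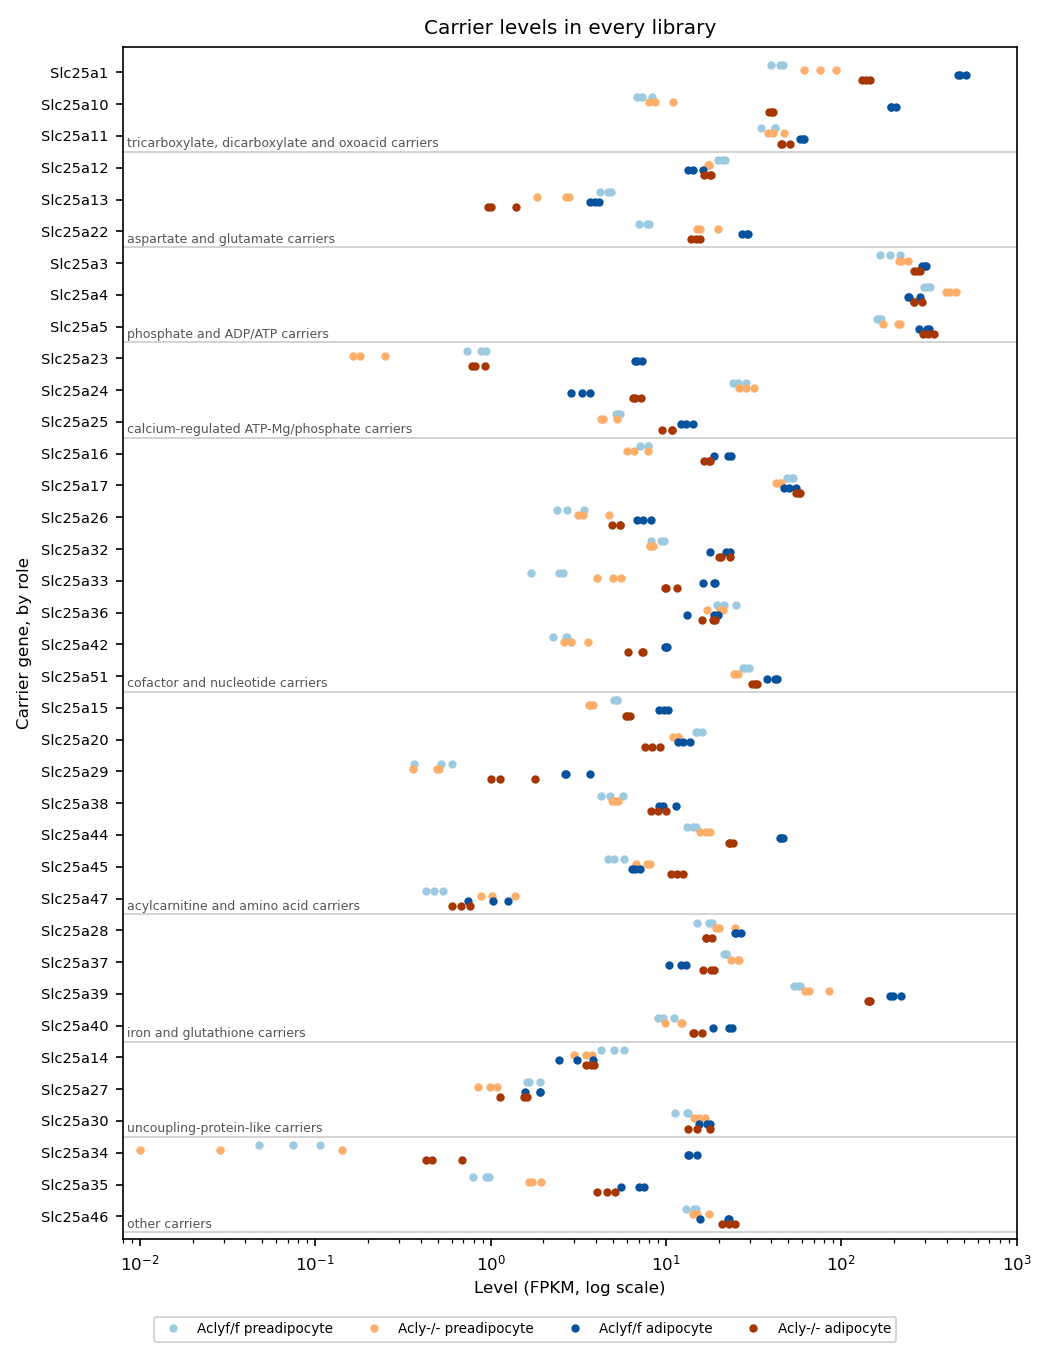
Level of tested carriers in every library (horizontal log axis, FPKM), with genes grouped by role on the vertical axis and colours for the 4 groups of 3 libraries. Slc25a1, Slc25a10, Slc25a22, Slc25a23 and Slc25a34 have their Aclyf/f adipocyte libraries to the right of all 9 others, while Slc25a24 has them to the left.

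**Figure D2:**
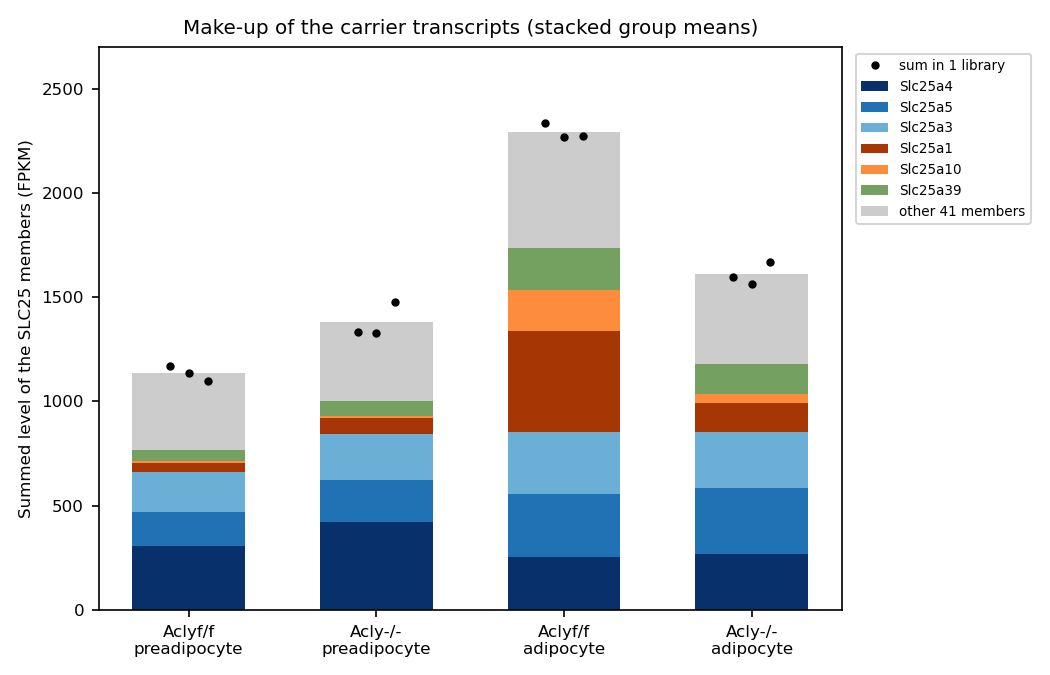
Summed FPKM of the 47 members in each group (vertical axis), stacked from group means with the 6 most abundant members of Aclyf/f adipocytes drawn separately, and points for the sum in each library. Slc25a1 made up 21.1% of the sum in adipocytes with Acly and 8.63% in those without.

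The first comparison asks how carrier expression changes when Aclyf/f cells differentiate. Of the 38 tested members, 35 changed at an adjusted p under 0.05 (limma), 28 upward and 7 downward, where 72.5% of all 11777 tested genes were called (36.5% higher and 36.0% lower). The median log2 change, here and below of FPKM + 1, was 0.83 over the members and -0.00 over all tested genes. Among the largest rises were those of Slc25a10, Slc25a34, Slc25a1, Slc25a33 (a pyrimidine nucleotide carrier) and Slc25a23 (an ATP-Mg/phosphate carrier). The largest falls were those of Slc25a24, another ATP-Mg/phosphate carrier, and Slc25a37, a mitochondrial iron importer. Of the 38, 20 were called with more than 2-fold between mean FPKM, beside 29.4% of all genes, and 34 were called with no overlap between the libraries of both stages, beside 70.6%. Slc25a23, Slc25a29 and Slc25a34 are in these counts, and in those for differentiation of Acly-/- cells and for Acly loss in adipocytes. None of them would have passed the filter without Aclyf/f adipocytes. Slc25a47 is also among the members called on differentiation in each genotype. It passed only through Acly-/- preadipocytes and Aclyf/f adipocytes together, the groups where it was highest. All 9 tested adipocyte markers rose on differentiation of Aclyf/f cells.

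In Acly-/- cells the carriers also rose on differentiation, with smaller steps in many members. Here 32 of the 38 changed, 25 upward and 7 downward, beside 61.4% of all genes (30.4% higher and 31.0% lower), and the median change was 0.39, against 0.00 over all genes. Of the 38, 13 were called with more than 2-fold between mean FPKM, beside 18.9% of all genes, and 32 with no overlap between libraries, beside 58.9%. The 6 largest rises were in Slc25a10, Slc25a32 (a folate carrier), Slc25a16 and Slc25a25 (a CoA-linked and an ATP-Mg/phosphate carrier), Slc25a39 (a glutathione carrier) and Slc25a35. Slc25a24, Slc25a13, Slc25a4, Slc25a37, Slc25a20 and Slc25a47 were the largest falls. The genotypes share no libraries: 23 members rose in both, 4 fell in both (Slc25a4, Slc25a20, Slc25a24 and Slc25a37), and 2 rose in Aclyf/f cells and fell in Acly-/- cells (Slc25a28 and Slc25a47). These overlaps were not counted over all genes.

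Whether the step of differentiation itself depends on genotype was tested by the difference between both changes, which equals the difference between the effects of Acly loss in adipocytes and in preadipocytes. It was called in 26 of 38 members, 21 with a smaller rise or larger fall in Acly-/- cells and 5 the other way, beside 50.2% of all genes (26.4% and 23.7%). The median was -0.40 over the members and -0.02 over all genes. Slc25a23, Slc25a29 and Slc25a34 are among the 21, although none would have passed the filter without Aclyf/f adipocytes, the group where they were high. Slc25a47 is among them too, although it passed only through Acly-/- preadipocytes and Aclyf/f adipocytes together. Slc25a34, Slc25a1, Slc25a10, the glutamate carrier Slc25a22 and Slc25a33 were among those with the largest differences. The 5 in the other direction were Slc25a24, Slc25a14, Slc25a12, Slc25a17 and Slc25a37.

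**Figure D3:**
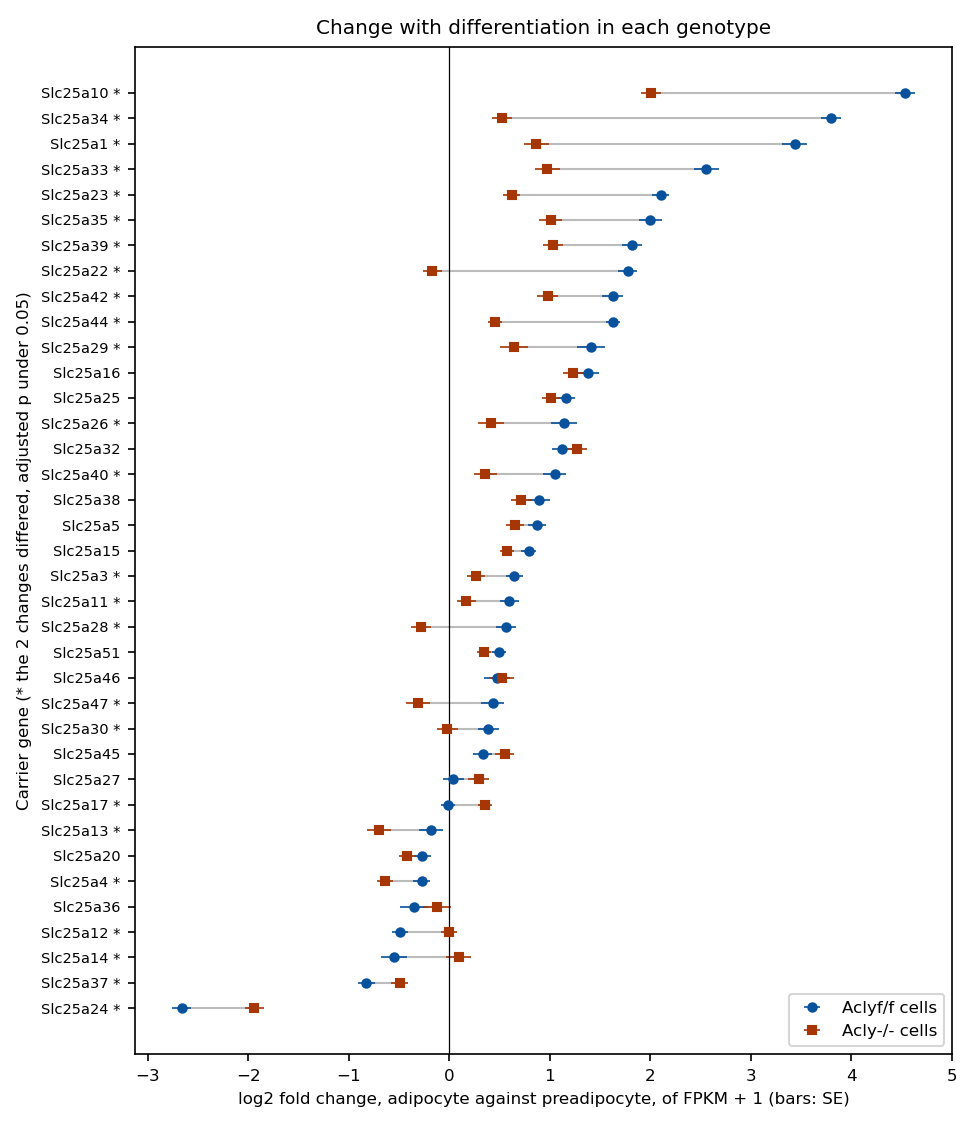
Change of tested carriers on differentiation, as log2 fold change of FPKM + 1 with its SE (horizontal axis), in Aclyf/f cells (circles) and Acly-/- cells (squares), genes ordered on the vertical axis by the change in Aclyf/f cells. Asterisks mark genes whose changes differed at an adjusted p under 0.05, and the grey line gives that difference, widest for Slc25a34 at -3.27.

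Loss of Acly in preadipocytes changed 22 of the 38 members, 13 upward and 9 downward, where 42.2% of all tested genes were called (19.7% higher and 22.4% lower). The median change was 0.15 over the members and -0.01 over all genes. Called changes passed 2-fold in mean FPKM in 4 members, beside 8.93% of all genes, and 21 members were called with no overlap between genotypes, beside 40.2%. The 6 largest rises were those of Slc25a22, Slc25a33, Slc25a1, Slc25a35, Slc25a47 and Slc25a45, and the 6 largest falls those of Slc25a13, Slc25a23, Slc25a27, Slc25a14, Slc25a15 and Slc25a20. Slc25a23 and Slc25a47 are in all of these counts. Slc25a23 was below 1 FPKM in both preadipocyte groups and was tested only because of Aclyf/f adipocytes. Slc25a47 would not have passed the filter without Acly-/- preadipocytes, where it was highest. The count of 13 was 8 without Aclyf/f preadipocyte library 3, 8 without Acly-/- preadipocyte library 3 and 7 when only the preadipocyte libraries entered the fit. Scaling every library to the same FPKM sum moved the share of higher calls over all genes from 46.8% to 34.7%. Adipocyte markers moved too: 5 of 9 were lower in Acly-/- preadipocytes, and their part in the carrier changes was not tested.

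In adipocytes, loss of Acly lowered 22 of the 38 members and raised 4, beside 54.8% of all genes called (29.2% lower and 25.6% higher). The median change was -0.34 over the members and -0.02 over all genes. Of the 38, 26 were called with no overlap between genotypes, beside 53.3% of all genes, and 8 were called with more than 2-fold, beside 12.5%. Among the largest falls were those of Slc25a34, Slc25a10, Slc25a23, Slc25a1 and Slc25a13, and the 4 rises those of Slc25a24, Slc25a45, Slc25a37 and Slc25a12. Scaling to the same FPKM sum moved the share of higher calls over all genes from 46.7% to 36.4%. Of the 9 tested adipocyte markers, 8 were lower in Acly-/- adipocytes, and 4 of 5 tested preadipocyte and fibroblast markers were higher. The median log2 change of the 9 was -0.82, in a range of -3.14 to -0.13. Adipoq had the largest fall of the 9, at 60.7 ± 1.2 against 544 ± 7.0 FPKM. In bulk RNA, fewer cells of a type and less RNA per cell cannot be told apart, and the part of the marker shifts in the carrier changes was not tested.

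The effects of Acly loss at both stages come from separate libraries. Over all genes 42.2% were called in preadipocytes and 54.8% in adipocytes. The overlaps given here were counted for the members only, so they have no share over all genes beside them. Of the 13 members that rose in preadipocytes, 7 fell in adipocytes (Slc25a1, Slc25a22, Slc25a28, Slc25a33, Slc25a35, Slc25a39 and Slc25a44), 5 were not called and Slc25a45 rose. Of the 9 that fell in preadipocytes, 5 also fell in adipocytes (Slc25a13, Slc25a15, Slc25a20, Slc25a23 and Slc25a51), 3 were not called and Slc25a12 rose. A further 10 fell in adipocytes without a call in preadipocytes, Slc25a10 and Slc25a34 among them. Only Slc25a32, Slc25a36, Slc25a38 and Slc25a46 were called at neither stage.

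**Figure D4:**
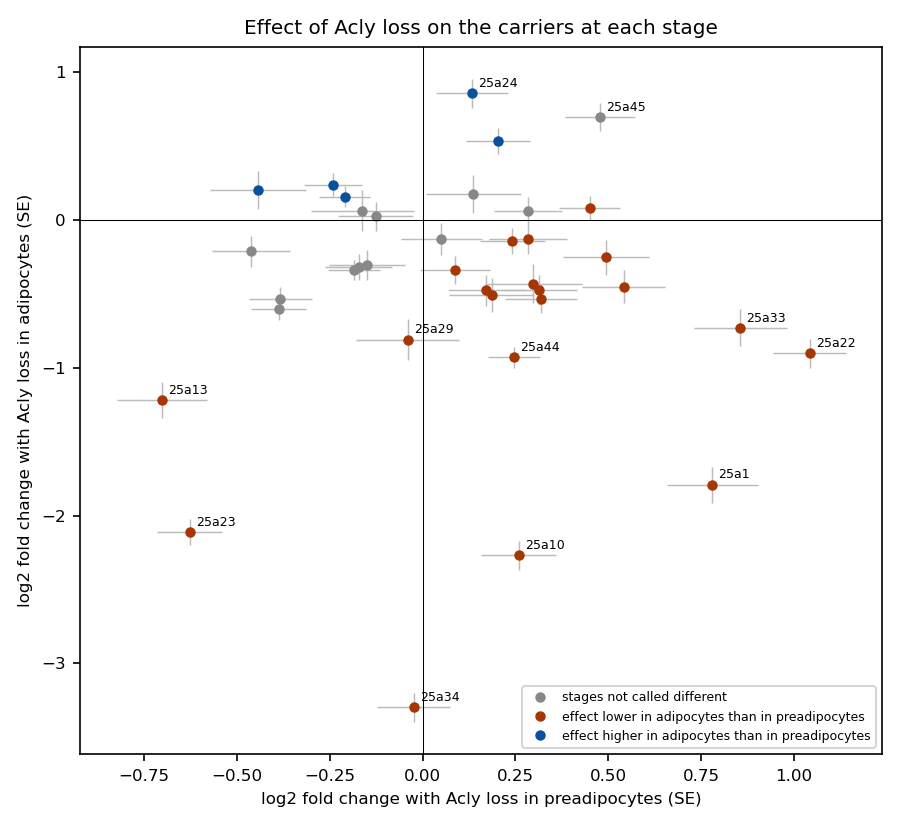
Log2 fold change of FPKM + 1 with Acly loss in preadipocytes (horizontal axis) and in adipocytes (vertical axis) for tested carriers, with SE bars and colours for the test of the difference between stages. Slc25a1, Slc25a22 and Slc25a33 lie to the right of 0 and below it, and Slc25a34 lies lowest at -3.30.

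The citrate carrier Slc25a1 and the dicarboxylate carrier Slc25a10 rose on differentiation in both genotypes and were lower in adipocytes without Acly. In preadipocytes Slc25a1 was at 46.6, 45.0 and 39.6 FPKM with Acly and 61.3, 75.2 and 93.9 without it. In adipocytes it was at 516, 473 and 461 FPKM with Acly and 132, 139 and 147 without it. All 4 groups were separate, with Aclyf/f adipocytes highest and Aclyf/f preadipocytes lowest. It rose 11.1-fold on differentiation in Aclyf/f cells (log2 change 3.44 ± 0.12 SE, adjusted p = 1.30e-11) and 1.81-fold in Acly-/- cells (0.87 ± 0.12, adjusted p = 3.23e-05). Loss of Acly went with a level 1.76-fold higher in preadipocytes (adjusted p = 0.000196) and 3.47-fold lower in adipocytes (adjusted p = 5.95e-08). The difference between stages was -2.57 ± 0.17 (adjusted p = 9.63e-08). Acly-/- preadipocyte library 3, which stood apart, was the highest of its group, and without it the preadipocyte change was 0.63 (adjusted p = 0.000367). Set against Acly itself, the ratio of Slc25a1 to Acly FPKM was 0.503 ± 0.031 in Aclyf/f preadipocytes and 0.642 ± 0.011 in Aclyf/f adipocytes, and Acly itself rose 8.68-fold in those cells.

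Slc25a10 exchanges malate or succinate for phosphate. In preadipocytes it was at 7.33, 8.31 and 6.85 FPKM with Acly and had a mean of 9.22 ± 1.61 without it. Adipocyte levels were 192 to 204 FPKM with Acly and 38.7 to 40.7 without it. The adipocyte groups stood far apart from each other and from the preadipocytes, while the preadipocyte groups overlapped. The rise with differentiation was 26.2-fold in Aclyf/f cells (log2 change 4.54 ± 0.10) and 4.33-fold in Acly-/- cells (2.01 ± 0.10), and the adipocyte level was 4.92-fold lower without Acly (adjusted p = 1.03e-09). In preadipocytes the change of 0.26 missed the threshold (adjusted p = 0.0525), and it passed without Aclyf/f preadipocyte library 2 (adjusted p = 0.0340) or Acly-/- preadipocyte library 1 (adjusted p = 0.0178). With all libraries it also passed with a pseudocount of 0.1 (adjusted p = 0.0481), quantile normalization (0.0316) or median-of-ratios rescaling (0.0477). Slc25a11, the oxoglutarate-malate carrier of the malate-aspartate shuttle, moved less, at 39.6 ± 4.28, 42.1 ± 4.66, 60.2 ± 1.76 and 47.5 ± 3.27 FPKM. Where 4 values follow each other, here and below, they are for preadipocytes with and without Acly and then for adipocytes with and without Acly. The ratio of Slc25a10 to Slc25a11 went from 0.190 ± 0.013 to 3.26 ± 0.13 on differentiation in Aclyf/f cells and from 0.218 ± 0.013 to 0.843 ± 0.076 in Acly-/- cells.

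**Figure D5:**
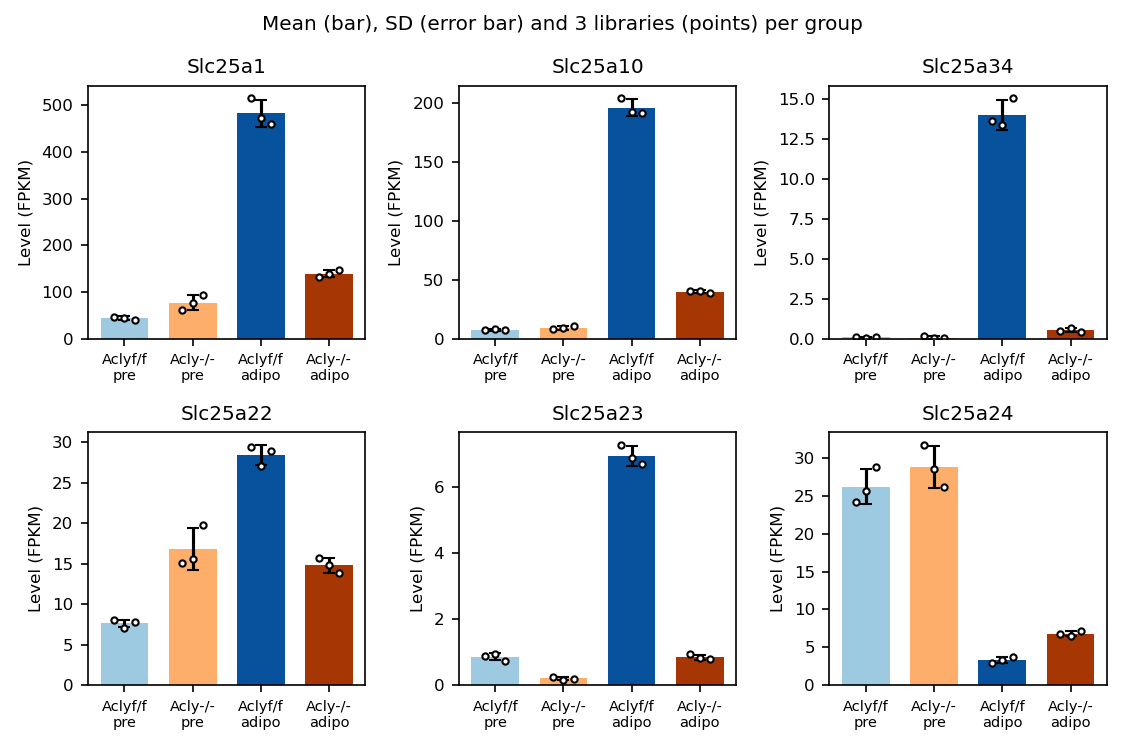
Levels (vertical axes, FPKM, from 0) of 6 carriers in the 4 groups, with bars for means, error bars for SD and points for the 3 libraries of a group. Slc25a1, Slc25a10, Slc25a34, Slc25a22 and Slc25a23 were highest in Aclyf/f adipocytes, and Slc25a24 was lowest there.

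Among the aspartate and glutamate carriers, the members moved in different directions. Slc25a22, which carries glutamate with protons, was at 7.05 to 7.98, 15.1 to 19.8, 27.1 to 29.5 and 13.9 to 15.6 FPKM. Acly-/- cells sat between the control stages at both times. It rose 3.74-fold on differentiation in Aclyf/f cells, whereas the Acly-/- change was -0.17 ± 0.10 (adjusted p = 0.152), and the difference was -1.94 ± 0.14 (adjusted p = 1.50e-07). With Acly loss it was 2.21-fold higher in preadipocytes and 1.93-fold lower in adipocytes.

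The calcium-regulated aspartate-glutamate carriers of the malate-aspartate shuttle are Slc25a12 and Slc25a13. Slc25a13 was at 4.58 ± 0.33, 2.45 ± 0.53, 3.93 ± 0.24 and 1.13 ± 0.24 FPKM. Acly loss lowered it 1.87-fold in preadipocytes (adjusted p = 0.000419) and 3.49-fold in adipocytes (adjusted p = 2.01e-06), with no overlap at either stage. The difference between stages, -0.52 ± 0.17 (adjusted p = 0.0226), lost its call on leaving out any of 6 libraries, with adjusted p up to 0.0549 without Acly-/- adipocyte library 2. Slc25a12 was at 20.8 ± 0.92, 17.5 ± 0.044, 14.6 ± 1.49 and 17.4 ± 0.84 FPKM, lower with Acly loss in preadipocytes and higher in adipocytes. Both of these calls were weak: the first was lost on leaving out any of 4 preadipocyte libraries (adjusted p up to 0.0861, without Aclyf/f library 3), the second on leaving out any of 4 adipocyte libraries (adjusted p up to 0.0784, without Aclyf/f library 1). The adipocyte call of Slc25a12 was also lost under scaling to the same FPKM sum (adjusted p = 0.182). The ratio of Slc25a13 to Slc25a12 was 0.220 ± 0.023, 0.141 ± 0.030, 0.269 ± 0.011 and 0.0644 ± 0.012.

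The carriers of phosphate and ADP/ATP were the most abundant in preadipocytes. All 3 tested members changed on differentiation in both genotypes, beside 72.5% of all genes in Aclyf/f and 61.4% in Acly-/- cells. Slc25a4 was at 308 ± 13.2, 421 ± 28.4, 255 ± 22.6 and 270 ± 16.2 FPKM, and Slc25a5 at 164 ± 4.19, 201 ± 24.1, 301 ± 20.7 and 315 ± 22.3 FPKM. On differentiation Slc25a4 fell and Slc25a5 rose in both genotypes, so that the ratio of Slc25a4 to Slc25a5 went from 1.88 ± 0.13 to 0.853 ± 0.14 in Aclyf/f cells and from 2.12 ± 0.29 to 0.858 ± 0.025 in Acly-/- cells. Slc25a4 was 1.37-fold higher in Acly-/- than in Aclyf/f preadipocytes (adjusted p = 0.000607). Of the gain in summed carrier FPKM with Acly loss in preadipocytes, 46.3% was Slc25a4. None of the 3 tested members of this group was called with Acly loss in adipocytes, where the log2 changes were -0.14 ± 0.09 for Slc25a3, 0.08 ± 0.08 for Slc25a4 and 0.07 ± 0.09 for Slc25a5. Slc25a3 was called lower there under the scaling to the same FPKM sum (adjusted p = 0.0390). In preadipocytes the rises of Slc25a3 (0.24, adjusted p = 0.0401) and Slc25a5 (0.28, adjusted p = 0.0234) were lost on leaving out any of 7 and any of 4 libraries, with adjusted p up to 0.194 and 0.0909. Both preadipocyte rises were also lost under the scaling to the same FPKM sum (adjusted p = 0.179 and 0.121). For Slc25a3 the rise in Acly-/- cells on differentiation (0.27, adjusted p = 0.0172) was lost without Acly-/- preadipocyte library 1 (adjusted p = 0.0615) or Acly-/- adipocyte library 3 (adjusted p = 0.0553). Copies of Slc25a5 in the genome make its value uncertain: the processed pseudogenes Gm5529 and Gm5560 match 72.3% and 71.5% of its transcript.

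ATP-Mg/phosphate carriers set the adenine nucleotide content of the matrix under control of cytosolic calcium, and the 3 tested members did not move together. In preadipocytes Slc25a24 was at 24.2, 25.7 and 28.8 FPKM with Acly and 31.8, 28.6 and 26.2 without it. In adipocytes it was at 2.89, 3.34 and 3.67 FPKM with Acly and 6.71, 6.47 and 7.17 without it. Preadipocytes of both genotypes overlapped, and the adipocyte groups lay below them and apart. It fell 7.94-fold on differentiation in Aclyf/f cells (log2 change -2.66 ± 0.10) and 4.26-fold in Acly-/- cells (-1.94 ± 0.10), and Acly-/- adipocytes held 2.05-fold more (adjusted p = 6.57e-06). Slc25a23 went the other way, at 0.734 to 0.938, 0.164 to 0.251, 6.70 to 7.30 and 0.789 to 0.931 FPKM. Acly-/- adipocytes were at the level of Aclyf/f preadipocytes and overlapped them. Its rise in Aclyf/f cells was 8.17-fold, and its adipocyte level was 8.24-fold lower without Acly. Slc25a23 too passed the filter only through Aclyf/f adipocytes, so these values are descriptions with no p. Between the preadipocyte groups, both below 1 FPKM, the log2 change with Acly loss was -0.63 ± 0.09, likewise given with no p. Levels in Acly-/- preadipocytes rest on few fragments, and no fold is given against them. The ratio of Slc25a23 to Slc25a24 was 0.0329 ± 0.0064 in Aclyf/f preadipocytes and 2.14 ± 0.36 in Aclyf/f adipocytes, but 0.125 ± 0.014 in Acly-/- adipocytes. Slc25a25 rose in both genotypes and was 1.27-fold lower in Acly-/- adipocytes (adjusted p = 0.00909).

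Of the 9 tested cofactor and nucleotide carriers, 7 rose and 1 fell on differentiation of Aclyf/f cells, and 6 were lower in Acly-/- than in Aclyf/f adipocytes. Over all genes 36.5% rose and 36.0% fell on that differentiation, and 29.2% were lower in Acly-/- adipocytes. Slc25a33, an importer of pyrimidine nucleotides, was at 2.25 ± 0.48, 4.87 ± 0.76, 18.0 ± 1.49 and 10.5 ± 0.90 FPKM. Like Slc25a1 and Slc25a22, it was higher with Acly loss in preadipocytes (2.16-fold, adjusted p = 0.000108) and lower in adipocytes (1.72-fold, adjusted p = 0.000254). Of the exonic length of Slc25a33, 14.9% overlaps a gene on the opposite strand, Gm13068, and the sources used here do not say whether the counting used strand.

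The remaining cofactor carriers moved less. Slc25a16 and Slc25a42, both linked to CoA, were at 7.63 ± 0.43, 6.81 ± 0.95, 21.6 ± 2.50 and 17.3 ± 0.68 FPKM and at 2.56 ± 0.24, 3.02 ± 0.51, 10.0 ± 0.14 and 6.93 ± 0.72 FPKM. Slc25a42 was 1.44-fold lower in Acly-/- adipocytes (adjusted p = 0.00168), whereas the fall of Slc25a16 (-0.30, adjusted p = 0.0221) was lost without Aclyf/f adipocyte library 2, Aclyf/f adipocyte library 3 or Acly-/- adipocyte library 1 (adjusted p 0.0751 to 0.0954). Slc25a32, the folate carrier, rose 2.31-fold in Aclyf/f and 2.59-fold in Acly-/- cells, at 9.10 ± 0.77, 8.24 ± 0.18, 21.1 ± 2.94 and 21.4 ± 1.71 FPKM, and its effect of Acly loss in adipocytes was 0.03 ± 0.10. Slc25a51, the NAD carrier, was 1.27-fold lower in Acly-/- adipocytes (adjusted p = 0.00106). Its lower call in preadipocytes (-0.19, adjusted p = 0.0461) was lost on leaving out any of 10 libraries, with adjusted p up to 0.157. For Slc25a26, the S-adenosylmethionine carrier, the fall with Acly loss in adipocytes (-0.43, adjusted p = 0.0136) was lost without Aclyf/f adipocyte library 3 (adjusted p = 0.0565). Slc25a17, a peroxisomal carrier of CoA and other cofactors, was at 51.3 ± 1.89, 44.3 ± 1.37, 50.9 ± 4.07 and 56.9 ± 1.78 FPKM. It rose on differentiation in Acly-/- cells (0.36 ± 0.07, adjusted p = 0.000543) and was not called in Aclyf/f cells (-0.01 ± 0.07), and the difference of 0.37 ± 0.10 was called (adjusted p = 0.00706). The fall of Slc25a36, a pyrimidine nucleotide carrier, in Aclyf/f cells (-0.35, adjusted p = 0.0370) was lost without Aclyf/f preadipocyte library 2, Aclyf/f preadipocyte library 3 or Aclyf/f adipocyte library 1 (adjusted p up to 0.194).

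Acylcarnitine and amino acid carriers were mixed. On differentiation of Aclyf/f cells 6 of 7 tested members were higher and 1 lower, beside 36.5% and 36.0% of all genes. Slc25a20, which brings acylcarnitines into mitochondria for fatty acid oxidation, was at 15.3 ± 0.66, 11.5 ± 0.41, 12.6 ± 1.02 and 8.40 ± 0.84 FPKM. Acly loss lowered it 1.33-fold in preadipocytes (adjusted p = 0.00265) and by a log2 change of -0.53 ± 0.08 in adipocytes (adjusted p = 0.000136). Its fall in differentiating Aclyf/f cells (-0.26, adjusted p = 0.0125) was lost without Aclyf/f preadipocyte library 3 (adjusted p = 0.0507) or Aclyf/f adipocyte library 3 (adjusted p = 0.0613). Slc25a44, the carrier of branched-chain amino acids, was at 14.1 ± 0.86, 16.9 ± 1.08, 45.5 ± 1.13 and 23.4 ± 0.71 FPKM. That is a 3.24-fold rise in Aclyf/f cells and a 1.39-fold rise in Acly-/- cells, with a difference of -1.17 ± 0.10 (adjusted p = 7.50e-07). Its rise with Acly loss in preadipocytes was lost without Aclyf/f preadipocyte library 3 (adjusted p = 0.0655). The rise was also lost under scaling to the same FPKM sum (adjusted p = 0.123) or with only the preadipocyte libraries fitted (adjusted p = 0.0574). Slc25a15, the ornithine carrier, fell with Acly loss at both stages, 1.39-fold in preadipocytes and 1.61-fold in adipocytes. Slc25a29, a carrier of basic amino acids, was at 0.367 to 0.602, 0.360 to 0.509, 2.66 to 3.71 and 1.00 to 1.78 FPKM. Its level was 2.32-fold lower in Acly-/- than in Aclyf/f adipocytes. Slc25a29 would not have passed the filter without Aclyf/f adipocytes, the group where it was high, so this fold is given with no p.

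Slc25a45 was the only tested member called higher with Acly loss at both stages. It was at 4.69 to 5.74, 6.75 to 8.11, 6.42 to 7.15 and 10.7 to 12.5 FPKM. Acly-/- libraries were above Aclyf/f libraries at each stage, 1.47-fold in preadipocytes (adjusted p = 0.00121) and 1.72-fold in adipocytes (adjusted p = 3.36e-05). Slc25a47 was near 1 FPKM, at 0.426 to 0.535, 0.885 to 1.37, 0.742 to 1.26 and 0.604 to 0.762, and was 2.28-fold higher with Acly loss in preadipocytes. It passed the filter only through Acly-/- preadipocytes and Aclyf/f adipocytes together, the groups where it was highest. Its changes are therefore given with no p. The call of its fall on differentiation in Acly-/- cells (-0.31) was lost on leaving out any of 4 libraries, among them Acly-/- preadipocyte library 3. Slc25a38, the glycine carrier used for haem synthesis, rose on differentiation in both genotypes and was called with Acly loss at neither stage.

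The mitochondrial iron importers Slc25a37 and Slc25a28 changed in opposite directions on differentiation of Aclyf/f cells and with Acly loss in adipocytes, while both fell on differentiation of Acly-/- cells. Slc25a37 was at 21.7 ± 0.32, 25.2 ± 1.44, 11.9 ± 1.32 and 17.6 ± 1.28 FPKM, falling 1.83-fold on differentiation in Aclyf/f cells and 1.43-fold in Acly-/- cells. Slc25a28 was at 17.0 ± 1.71, 21.4 ± 2.99, 25.6 ± 1.08 and 17.4 ± 0.83 FPKM. In Acly-/- adipocytes Slc25a37 was 1.48-fold higher (adjusted p = 0.000155) and Slc25a28 1.47-fold lower (adjusted p = 0.000470) than in Aclyf/f adipocytes. Their ratio was 1.29 ± 0.15, 1.19 ± 0.13, 0.467 ± 0.068 and 1.02 ± 0.12, so Aclyf/f adipocytes lay apart from the other 3 groups. The difference of Slc25a37 between genotypes in the change with differentiation (0.33, adjusted p = 0.0368) was lost with the replicate number as a block (adjusted p = 0.0528) and on leaving out any of 7 libraries, with adjusted p up to 0.0897. For Slc25a28, 2 calls were lost without single libraries: the rise with Acly loss in preadipocytes (0.32) without library 3 of either genotype (adjusted p 0.0755 and 0.0919), and the fall on differentiation in Acly-/- cells (-0.28) without Acly-/- preadipocyte library 3 or Acly-/- adipocyte library 1 or 2 (adjusted p up to 0.106).

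Of the glutathione carriers, Slc25a39 was the abundant member, at 53.5 to 58.5, 61.9 to 85.0, 189 to 218 and 143 to 147 FPKM. It rose 3.59-fold in Aclyf/f cells and 2.04-fold in Acly-/- cells and was 1.39-fold lower with Acly loss in adipocytes (adjusted p = 0.00144). Slc25a40 followed at lower levels, at 9.94 ± 1.07, 11.5 ± 1.44, 21.7 ± 2.87 and 15.0 ± 1.03 FPKM. The processed pseudogene Gm5066 matches 25.9% of the Slc25a40 transcript, which adds uncertainty to its value. The preadipocyte rise of Slc25a39 (0.31) was lost without Aclyf/f preadipocyte library 1 or 3 or Acly-/- preadipocyte library 3 (adjusted p 0.0504 to 0.0808), and the rise of Slc25a40 on differentiation in Acly-/- cells (0.36) without Acly-/- preadipocyte library 3 or Acly-/- adipocyte library 1 (adjusted p 0.0641 and 0.0608).

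Carriers that resemble uncoupling proteins were not called with Acly loss in adipocytes, where the log2 changes were -0.12 ± 0.10 for Slc25a30, 0.20 ± 0.13 for Slc25a14 and -0.21 ± 0.10 for Slc25a27. Slc25a30 was at 12.6 ± 1.17, 15.5 ± 1.11, 16.8 ± 1.26 and 15.4 ± 2.21 FPKM, Slc25a14 at 5.02 ± 0.76, 3.42 ± 0.40, 3.12 ± 0.69 and 3.71 ± 0.20, and Slc25a27 at 1.73 ± 0.15, 0.980 ± 0.12, 1.81 ± 0.20 and 1.43 ± 0.25. In preadipocytes Acly loss lowered Slc25a27 1.76-fold (adjusted p = 0.00312). It lowered Slc25a14 1.47-fold (adjusted p = 0.0140), a call lost without Aclyf/f preadipocyte library 1 (adjusted p = 0.0603) or Acly-/- preadipocyte library 3 (adjusted p = 0.0572). Slc25a14 also fell on differentiation in Aclyf/f cells (-0.55 ± 0.13) and not in Acly-/- cells (0.09 ± 0.13), with a called difference of 0.65 ± 0.18 (adjusted p = 0.00985). The rise of Slc25a30 with Acly loss in preadipocytes (0.28, adjusted p = 0.0444) and its difference between genotypes on differentiation (-0.41, adjusted p = 0.0358) were each lost on leaving out any of 7 libraries, with adjusted p up to 0.175 and 0.0921. Both were also lost under scaling to the same FPKM sum (adjusted p = 0.218 and 0.0736).

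Slc25a34 and Slc25a35 are carriers of less settled substrate. In preadipocytes Slc25a34 was at 0.107, 0.0477 and 0.0748 FPKM with Acly and 0.142, 0.01 and 0.0286 without it. In adipocytes it was at 13.6, 13.3 and 15.1 FPKM with Acly and 0.465, 0.689 and 0.429 without it. Only Aclyf/f adipocytes were above 1 FPKM, and the preadipocyte levels rest on few or no fragments, so no fold is given against them. The gene passed the filter on low values only through the group where it was high, so its level there, 26.5-fold above that of Acly-/- adipocytes, is given as a description with no p. Slc25a35 was at 0.904 ± 0.095, 1.77 ± 0.15, 6.67 ± 1.02 and 4.60 ± 0.54 FPKM, 1.96-fold higher with Acly loss in preadipocytes (adjusted p = 0.00161) and 1.45-fold lower in adipocytes (adjusted p = 0.00387). Its values are uncertain, since 31.3% of its exonic length overlaps Rangrf on the opposite strand. Slc25a46, an outer-membrane protein tied to mitochondrial shape, was at 14.1 ± 0.94, 15.7 ± 1.77, 20.4 ± 4.09 and 22.9 ± 1.88 FPKM, rose in both genotypes and was called with Acly loss at neither stage.

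The 9 members below the filter gave no test. Slc25a41 and Slc25a54 were at the floor of 0.01 FPKM in all 12 libraries. Slc25a21, a carrier of oxodicarboxylates such as oxoadipate, reached 1.05 FPKM at most, the ADP/ATP carrier Slc25a31 0.0673, the glutamate carrier Slc25a18 0.289, and Slc25a2, Slc25a43, Slc25a48 and Slc25a53 0.218, 0.441, 0.203 and 0.594 FPKM. Slc25a21, Slc25a43 and Slc25a53 were above 0.3 FPKM in some libraries. Slc25a43 still rested on about 9.3 fragments at most, and the others with any signal rest on few fragments.

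Relatives with other symbols included the abundant outer-membrane proteins Mtch1 and Mtch2 and the uncoupling proteins. Ucp2 was at 0.766 to 1.28, 1.14 to 1.79, 25.2 to 27.5 and 4.97 to 5.61 FPKM, and was 5.04-fold lower with Acly loss in adipocytes (adjusted p = 8.71e-09). Its Aclyf/f adipocyte libraries were above the other 9. Ucp1, the thermogenic protein of brown fat, was at the floor in all libraries but 1 of Acly-/- adipocytes, where it was at 0.0587 FPKM, and Ucp3 had group means of at most 0.0435 FPKM.

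Enzymes that make or use what the carriers move were read from a list of 25, of which 23 were tested. On differentiation 19 rose and 3 fell in each genotype (all genes are given above, at 72.5% called in Aclyf/f and 61.4% in Acly-/- cells). With Acly loss in adipocytes 16 were lower and 5 higher, with a median change of -0.62, beside 54.8% of all genes called. In preadipocytes 4 were lower and 5 higher, which is 39.1% of the 23, near the 42.2% of all genes. Citrate synthase, Cs, which makes the substrate of Slc25a1, was at 80.6 ± 1.0, 85.4 ± 3.1, 429 ± 2.1 and 178 ± 5.0 FPKM. Pyruvate carboxylase, Pcx, was at 13.3 ± 0.72, 17.2 ± 2.5, 640 ± 39 and 225 ± 14 FPKM, and the malic enzyme Me1 at 41.7 ± 0.78, 47.3 ± 3.0, 257 ± 5.6 and 113 ± 8.6 FPKM. All of these were highest in Aclyf/f adipocytes. Idh1, Got1, Got2 and Cpt1a were among those higher in Acly-/- adipocytes.

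Other mitochondrial lists were used to place the family. Of 14 genes of the machinery that imports carriers into the inner membrane, 10 rose in each genotype on differentiation. Over all genes 36.5% rose in Aclyf/f and 30.4% in Acly-/- cells. The 3 called with Acly loss in adipocytes were higher, which is 21.4% of the list beside 54.8% of all genes. Of 88 tested respiratory chain genes, 81 rose in Aclyf/f cells, beside 36.5% of all genes. With Acly loss in adipocytes 41 were lower and 4 higher, with a median of -0.24, and the share called, 51.1%, was near the 54.8% of all genes. By direction 46.6% were lower and 4.55% higher, beside 29.2% and 25.6% of all genes. Of 77 mitochondrial ribosomal protein genes, 65 rose in Aclyf/f cells. With Acly loss in adipocytes 30 were lower and 2 higher (41.6% called, 39.0% lower and 2.60% higher), with a median of -0.16. The median of the 38 carriers in that comparison was -0.34, and these lists were not tested against each other.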

How the data were processed

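The authors deposited 1 table of FPKM values for 24341 genes in 12 libraries, with a floor of 0.01 and genes named by symbol and mm10 locus, per the file headers. Without roles or order, bcl2fastq, Bowtie2 2.2.6, Cufflinks 2.2.1 and mm10 are named per the submitters' processing notes. Annotation, strand handling and filters were not given in the sources used here. Groups follow the labels.

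Values were taken as log2(FPKM + 1) and fitted as 4 group means with limma 3.58.1 in R 4.3.3, using a mean-variance trend. The 11777 genes that reached 1 FPKM in 3 or more of the 12 libraries were tested and 12564 were not. P-values are two-sided and adjusted by Benjamini-Hochberg over all tested genes in a contrast. Genes were called at an adjusted p under 0.05. Log2 changes understate changes of low genes, and folds are ratios of mean FPKM. The fit was tested on simulated data. Relative depth came from the steps between low FPKM values, since counts were not used here, and limits what can be said of genes below about 0.3 FPKM.

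Named are Slc25a1, the 6 called members with the largest rise and fall per contrast, and others within their role group. Some genes counted in the totals are not reported here by name or drawn in the figures of single genes. The members, lists and named genes were chosen with earlier results of these data known. Residuals of same-number libraries correlated over 0.1 in all 3 pairs for differentiation of Acly-/- cells (0.123, 0.147 and 0.124), and for no other comparison. Libraries of different number in different groups correlated at -0.168 to 0.416, so these values do not establish a pairing. Alternatives were another pseudocount (0.1), 2 other filters, 3 scalings, no variance trend, only the groups of a contrast, the replicate number as a block, and each library left out. Tables and figures used Python 3.11.15, pandas 2.3.3, numpy 2.4.6 and matplotlib 3.10.9.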

Additional observations from a re-analysis of the deposited data

Results flagged for a closer look

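The effect of Acly loss differed between adipocytes and preadipocytes in 26 of the 38 tested carriers, by limma's test of the difference itself (adjusted p under 0.05). Over all tested genes 50.2% were called. Slc25a23, Slc25a29 and Slc25a34 would not have passed the filter on low values without Aclyf/f adipocytes, the group where they were high. Slc25a47 passed it only through Acly-/- preadipocytes and Aclyf/f adipocytes together, the groups where it was highest. Values for those reported here are the log2 change in adipocytes minus that in preadipocytes. The difference was -3.27 for Slc25a34, -2.57 for Slc25a1, -2.53 for Slc25a10, -1.94 for Slc25a22, -1.58 for Slc25a33, -1.48 for Slc25a23 and -1.17 for Slc25a44. A second set lay between -1 and -0.5: Slc25a35 at -0.99, Slc25a28 at -0.85, Slc25a39 at -0.79, Slc25a29 at -0.77, Slc25a47 at -0.74, Slc25a26 at -0.73, Slc25a40 at -0.69, Slc25a42 at -0.65 and Slc25a13 at -0.52. Smaller differences were found in Slc25a11 at -0.42, Slc25a30 at -0.41, Slc25a3 at -0.38 and Slc25a4 at -0.37. In the other direction were Slc25a24 at 0.72, Slc25a14 at 0.65, Slc25a12 at 0.48, Slc25a17 at 0.37 and Slc25a37 at 0.33. The calls of Slc25a3, Slc25a13, Slc25a30 and Slc25a37 were lost when some single library was left out, that of Slc25a3 only without Aclyf/f preadipocyte library 3 (adjusted p = 0.0516).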

How the results depend on the processing

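No result reversed under the 22 alternatives, 12 of which leave out 1 library. The count of members called higher with Acly loss in preadipocytes, 13, was 7 when only the groups of the contrast were fitted, and 8 to 15 when a library was left out. The other counts of called members stayed within 1.5 times their value. Calls held under every alternative in 12 of 22 members for Acly loss in preadipocytes, 23 of 26 in adipocytes, 33 of 35 and 26 of 32 for differentiation in Aclyf/f and Acly-/- cells, and 22 of 26 for the difference. Some calls described above as lost without single libraries were also lost under another scaling, filter or fit. Calls were gained too, under at least 1 alternative. With Acly loss these were 5 of the 16 members not called in preadipocytes and 3 of 12 in adipocytes. For differentiation they were 0 of 3 in Aclyf/f and 1 of 6 in Acly-/- cells, and for the difference 1 of 12. Only between Acly-/- preadipocytes and adipocytes were all residual correlations of same-number libraries over 0.1. Over all 18 same-number pairs 4 were over 0.1 (range -0.414 to 0.147). Libraries of different number reached 0.416, so no pairing is established. With the replicate block, members called higher and lower were 12 and 8, 4 and 22, 28 and 7, 25 and 7, and 4 and 21 in the 5 contrasts, where the calls of Slc25a3 and Slc25a51 (Acly loss in preadipocytes) and of Slc25a37 (the difference) were lost. For differentiation of Acly-/- cells the block changed no member's call, and a block fitted on the Acly-/- libraries alone, an alternative added after seeing the data, again gave 25 and 7. Over all genes the block gave 4573, 6125, 8352, 6954 and 5516 calls, against 4966, 6452, 8537, 7232 and 5908 without it. Genes below about 0.3 FPKM rest on few fragments at these depths.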
